A study of Mus musculus with 12 samples.

Results

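The 49 genes described here encode subunits of the last 3 complexes of oxidative phosphorylation, namely complex III (cytochrome bc1 complex), complex IV (cytochrome c oxidase) and complex V (ATP synthase), together with cytochrome c, the small protein that carries electrons between complexes III and IV. They were the protein-coding genes whose symbol in the GRCm38 annotation starts with Uqcr, Cox4, Cox5, Cox6, Cox7, Cox8, Atp5, mt-Co or mt-Atp, or is Cyc1, Cycs or mt-Cytb, and whose mean reached 10 normalized counts in both tissues. Of 55487 rows in the gene tables, 52 matched by symbol and 3 were left out for low values (Cox8c, Cox7b2 and a second gene model named Atp5o), leaving 43 nuclear genes and the 6 mitochondrially encoded (mt-) genes. Another 8 pseudogenes carry such symbols and were not members.

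RNA sequencing was run on total RNA of C57BL/6 mouse brain, in hippocampus and cerebral cortex. The 12 libraries fell into 4 groups of 3: hippocampus mTert KO (G1) and hippocampus mTert WT, then cortex mTert KO (G1) and cortex mTert WT, called KO and WT from here on. Tert encodes the catalytic protein subunit of telomerase, and the comparison asks which brain transcripts differ without it. The labels give no age for the mice and do not say that each library is a different animal. The p-values therefore measure only how far these samples vary, and that variation may be technical.

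Complex III passes electrons from ubiquinol to cytochrome c, complex IV hands them to oxygen, both pump protons out of the mitochondrial matrix, and complex V lets the protons return through its membrane rotor to make ATP. Cytochrome b of complex III, the catalytic centre of complex IV and part of the proton channel of complex V are encoded by mitochondrial DNA. Most remaining subunits, cytochrome c1 and the Rieske iron-sulfur protein of complex III among them, are encoded in the nucleus and imported. Neurons depend heavily on this route for ATP, and several complex IV subunits exist as a general form and a form known best from muscle, lung or testis.

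Library depth was between 68424934 and 86639113 reads, taking the smallest step between deposited values as 1 read. Tert read 0, 6.31 and 0 normalized counts in the hippocampus KO libraries against 147, 184 and 128 in hippocampus WT, and 0 in every cortex KO library against 206, 105 and 241 in cortex WT. Unusual WT libraries were seen in both tissues. In cortex WT library 2 the median nuclear subunit lay 0.45 above the mean of the 6 libraries on the log2 scale, whereas the other 5 libraries lay between -0.12 and -0.05. In hippocampus, WT library 3 lay between WT libraries 1 and 2 in 453 of 499 genes (90.8%) that differed at least 2-fold between those libraries and averaged 100 normalized counts or more, at a median position of 0.485 on a scale with 0 at library 2 and 1 at library 1. The matching share was 62.2% of 119 genes for hippocampus KO library 3, 74.0% of 469 for cortex WT library 3 and 60% of 100 for cortex KO library 3. Cortex WT library 3 had a median position of 0.882 on that scale, near cortex WT library 1. The sources used here do not say whether library 3 was a separate sample, and some results are also given without it. Because hippocampus WT library 3 lay near the midpoint of libraries 1 and 2, the spread of hippocampus WT may be understated. This bears on the limma tests, the permutation tests and the counts of groups without overlap that include it.

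Promoter sequence was available for 31 of the 43 nuclear genes, and 3 motifs known from promoters of respiratory genes were searched on both strands of the 250 bases before each RefSeq start. The site of nuclear respiratory factor 1 (NRF1), GCGCA and GCGC with any 1 base between them, stood in 5 of the 31 genes (16.1%) and in 4.23% of all 27025 genes with such a window. CGGAAG, the core of ETS family sites that includes the nuclear respiratory factor 2 site, stood in 12 of 31 (38.7%) and in 15.3% of all genes. AAGATGGCG, a YY1 site, stood in 1 of 31 (Atp5j) and in 0.710% of all genes. Stretches of 4 promoters are printed 5′ to 3′ on the gene's strand (RefSeq, GRCm38.p6; only bases upstream of annotated exons of the gene), with the matches in capitals. Cox5a (chr9:57520982-57521231, plus strand) and Atp5c1 (chr2:10080511-10080760, minus strand) were higher in KO hippocampus and hold an ETS core 54 and 88 bases before the start. Atp5e (chr2:174464106-174464351, minus strand) and Cox6a1 (chr5:115348982-115349208, minus strand) were not called and hold an ETS core 102 bases and NRF1 matches 162 and 117 bases before it. They are shown because the ETS core occurred in genes with and without a call and Cox6a1 holds a pair of NRF1 matches. Atp5c1 also counted among the genes with the NRF1 motif and Cox6a1 among those with the ETS core, through bases outside the printed stretches.
Cox5a: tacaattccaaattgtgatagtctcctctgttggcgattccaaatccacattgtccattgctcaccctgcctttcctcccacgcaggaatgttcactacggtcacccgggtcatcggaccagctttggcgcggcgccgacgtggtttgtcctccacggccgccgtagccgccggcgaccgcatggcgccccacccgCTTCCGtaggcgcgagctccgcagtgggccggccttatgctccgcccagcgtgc
Atp5c1: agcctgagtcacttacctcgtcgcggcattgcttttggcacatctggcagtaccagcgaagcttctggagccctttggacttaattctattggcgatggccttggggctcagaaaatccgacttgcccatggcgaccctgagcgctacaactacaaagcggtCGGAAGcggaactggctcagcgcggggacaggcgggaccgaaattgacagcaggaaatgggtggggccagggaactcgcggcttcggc
Atp5e: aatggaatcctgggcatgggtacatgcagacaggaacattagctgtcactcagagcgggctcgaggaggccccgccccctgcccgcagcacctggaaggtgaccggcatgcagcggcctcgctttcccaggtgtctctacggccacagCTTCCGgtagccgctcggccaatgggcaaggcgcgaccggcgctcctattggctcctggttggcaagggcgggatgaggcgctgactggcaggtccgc
Cox6a1: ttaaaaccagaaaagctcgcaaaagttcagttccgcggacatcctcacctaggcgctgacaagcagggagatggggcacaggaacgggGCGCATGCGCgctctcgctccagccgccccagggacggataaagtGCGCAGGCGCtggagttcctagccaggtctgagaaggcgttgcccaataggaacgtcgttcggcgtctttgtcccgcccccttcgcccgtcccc
Among the genes that rose in KO hippocampus, 2 of 12 with a window held the NRF1 motif and 4 of 12 the ETS core, against 3 of 19 and 8 of 19 of those not called. A match is a run of letters in this window and was not tested as a binding site.

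In hippocampus, 16 of the 43 nuclear subunit genes rose in KO and 0 fell, and 3 of the 6 mt genes rose. The rises were small, between 8.53% and 22.2% for nuclear genes on the scale of the fit. They took in the 4 catalytic and core genes of complex III, cytochrome c, the F1 head of ATP synthase and the mt-encoded Cytb, Co1 and Co2 transcripts, while most small accessory subunits were not called. Calls are limma tests on log2(normalized count + 1) with Benjamini-Hochberg adjusted p under 0.05 over the 22337 genes tested, of which 14.1% were called higher and 15.1% lower in KO. The median log2 fold change, KO over WT throughout, was 0.11 over the nuclear genes, 0.27 over the mt genes and 0.015 over all genes, and 36 of 43 nuclear genes lay above 0. In 25 nuclear genes and 4 mt genes every KO library lay above every WT library, against 24.3% of all genes, and in 1 nuclear gene, Atp5e, every KO library lay below, against 21.5% of all genes. In bulk tissue, fewer cells of a type and less RNA per cell cannot be told apart.

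**Figure D1:**
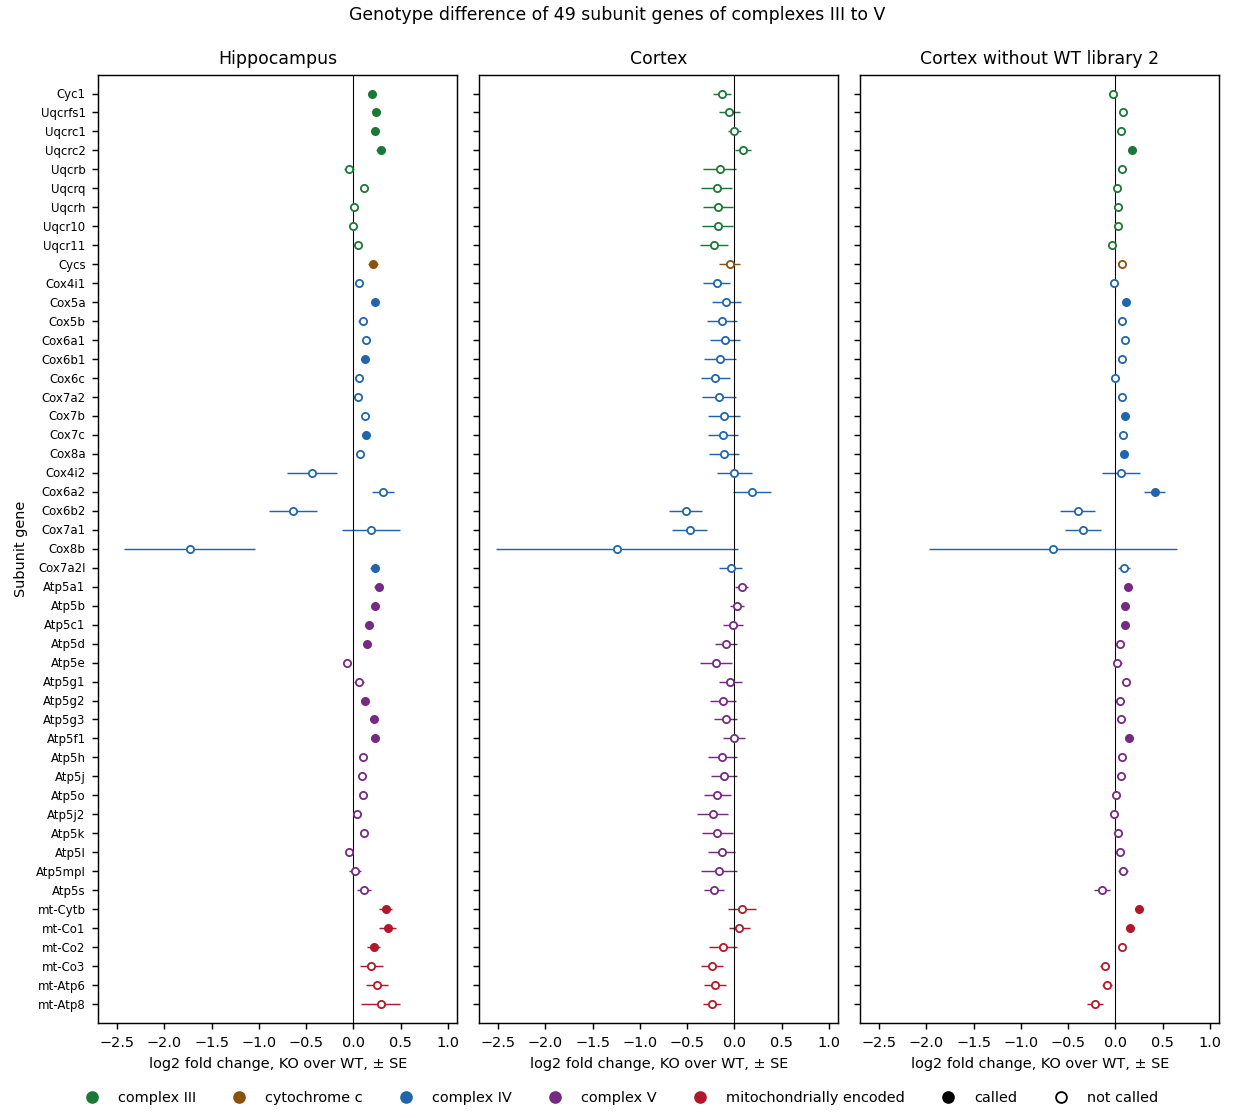
Log2 fold change (KO over WT, limma, ± SE) of the 49 subunit genes in hippocampus, in cortex and in cortex without WT library 2 (3 libraries per group, 2 for WT in the last panel), coloured by complex, with filled points for called genes. In hippocampus 16 nuclear and 3 mt genes were called higher and 0 lower, and in cortex with all libraries 0 were called.

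The number of calls moved when libraries were left out. Without KO library 1, 2 or 3 in turn, 13, 9 and 11 nuclear genes and 1 mt gene each rose, while the share of all genes called higher was 8.55%, 6.53% and 8.23%. Without WT library 3, 9 nuclear and 0 mt genes rose, against 5.95% of all genes. Without WT library 1 or 2 the counts were 16 and 3, against 11.7% and 17.6% of all genes. Without the libraries numbered 3 of both genotypes, an alternative chosen after seeing the data, 0 of 43 nuclear and 0 of 6 mt genes were called by limma, 11 and 0 had an unadjusted p under 0.05, and 0.731% of all genes were called higher. The median fold changes were then 0.12 and 0.14. The 16 nuclear genes all stayed above 0, with log2 fold changes from 0.12 to 0.31 and adjusted p from 0.0774 to 0.290, and the 3 mt genes had adjusted p from 0.267 to 0.415.

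Complex III split by role: all 4 catalytic and core genes rose and 0 of its 5 small accessory genes did. Uqcrc2, a core structural protein of the complex (ENSMUSG00000030884, chr7:120635176-120659524, plus strand), had 10967, 11374 and 11066 normalized counts in KO hippocampus against 8596, 9452 and 9313 in WT. The groups did not overlap, and the gene had the smallest p of the nuclear members (log2 fold change 0.29 ± 0.05, limma adjusted p = 0.00357). Uqcrc2 shares exonic bases with Pdzd9 on the opposite strand, and the sources used here do not give the strandedness of the libraries. Cyc1, cytochrome c1 (ENSMUSG00000022551, chr15:76343523-76346260, plus strand), reached 9028, 9384 and 9316 normalized counts in KO against 8112, 8013 and 8038 in WT. Its KO libraries all lay above its WT libraries, which had a coefficient of variation of 0.637%. The log2 fold change of Cyc1 was 0.20 ± 0.03 (limma adjusted p = 0.00544).
Uqcrc1, the partner core protein of Uqcrc2, had 13823, 14575 and 13694 normalized counts in KO against 11821, 12357 and 11859 in WT, again without overlap (0.22 ± 0.04, limma adjusted p = 0.00644). Uqcrfs1, the Rieske iron-sulfur protein, had 6766, 6969 and 6735 in KO against 5477, 6063 and 5799 in WT (0.24 ± 0.05, limma adjusted p = 0.00785). Among the small accessory subunits, Uqcrb, Uqcrh, Uqcr10 and Uqcr11 had log2 fold changes between -0.05 and 0.05 with overlapping groups. Uqcr11 read 4535, 4654 and 4615 in KO against 4648, 4402 and 4271 in WT (0.05 ± 0.04, limma adjusted p = 0.408). Uqcrq, which lies in the membrane beside cytochrome b, had every KO library above every WT library but missed the threshold (0.11 ± 0.04, limma adjusted p = 0.0780).

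Cycs, somatic cytochrome c, rose in KO hippocampus. It had 5235, 5734 and 5955 normalized counts in KO against 4913, 4828 and 4867 in WT. The WT libraries were close together and the KO libraries were spread above them (0.21 ± 0.05, limma adjusted p = 0.0209).

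Of the 16 nuclear genes of complex IV, 4 rose in KO hippocampus: Cox5a, Cox6b1, Cox7c and Cox7a2l. Cox5a, which binds the matrix side of the enzyme (ENSMUSG00000000088, chr9:57521274-57532426, plus strand), had 6671, 6827 and 6778 normalized counts in KO against 5726, 5923 and 5666 in WT. Every KO library exceeded every WT library by more than either group's spread (0.23 ± 0.04, limma adjusted p = 0.00362). Its exons overlap Gm26631 on the opposite strand. Cox7a2l, a factor that joins complexes III and IV into a supercomplex, had 7553, 7655 and 7595 in KO against 6148, 6827 and 6524 in WT, with the spread lying mainly in WT (0.23 ± 0.05, limma adjusted p = 0.00920). Cox6b1, on the intermembrane side where it joins the monomers of the enzyme, had 8651, 8424 and 8572 in KO against 7976, 7772 and 7769 in WT. Neither Cox6b1 (0.13 ± 0.03, limma adjusted p = 0.0311) nor Cox7c (0.13 ± 0.04, limma adjusted p = 0.0390) had overlapping groups. The remaining 7 general accessory genes were not called. Cox6a1 lay nearest to the threshold, with 15668, 15448 and 14899 in KO against 13773, 14571 and 13701 in WT (0.13 ± 0.04, limma adjusted p = 0.0505). Cox4i1, the largest nuclear subunit and the site of ATP regulation, had 21816, 21313 and 20746 in KO against 20655, 20608 and 20093 in WT (0.06 ± 0.04, limma adjusted p = 0.291).

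None of the 5 tissue-restricted isoforms of complex IV was called in hippocampus, and 3 had an unadjusted p under 0.05. Per kilobase of exon they stood far below their general partners. Cox8b, the heart and muscle form, had 73.8 ± 22.5 normalized counts per kb in KO and 333 ± 252 in WT, while Cox8a, the general form, had 30076 ± 902 in KO and 28570 ± 1005 in WT (SD, n = 3 each). The libraries behind Cox8b were 20.5, 23.5 and 35.8 normalized counts in KO against 207, 25.7 and 127 in WT, so that WT library 2 lay among the KO libraries (-1.73 ± 0.69, limma adjusted p = 0.10). Cox6b2, a testis form, and Cox4i2, the lung form that takes part in oxygen sensing, had the same order of WT libraries. Cox6b2 read 123, 141 and 161 in KO against 319, 153 and 215 in WT (-0.64 ± 0.26, limma adjusted p = 0.102), and Cox4i2 read 76.2, 81.2 and 60.0 in KO against 127, 66.4 and 110 in WT (-0.44 ± 0.27, limma adjusted p = 0.258). Markers of choroid plexus and ependyma (10 genes, none at 0 in every library, 0 called) had the same order of WT libraries. The order was not particular to them. Summed endothelial, striatal, blood, and heart and muscle markers shared it, and summed neuron, astrocyte, oligodendrocyte and microglia markers had the reverse. Among the KO libraries the choroid plexus and ependyma markers had an order that none of the 3 genes shared. Their summed counts were 20433, 10725 and 15137 in KO and 352158, 14209 and 183226 in WT, with Ttr, the defining choroid plexus transcript, at 322269, 7986 and 165256 in WT. Their part in the levels of Cox8b, Cox6b2 and Cox4i2 was not tested. Without hippocampus WT library 2, these 3 genes were each called lower in KO, as were 17.6% of all genes.

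Cox6a2, the heart and muscle form of Cox6a1, behaved otherwise. It had 227, 209 and 222 normalized counts in KO hippocampus against 200, 162 and 169 in WT. The groups did not overlap, but the test missed the threshold (0.31 ± 0.12, limma adjusted p = 0.0899). Cox7a1, the muscle form of Cox7a2, had 47.8, 91.1 and 85.1 in KO against 82.4, 48.2 and 62.4 in WT, with wide overlap (0.19 ± 0.31, limma adjusted p = 0.680). Cox7a2 had 5669, 5706 and 5498 in KO against 5559, 5461 and 5270 in WT (0.05 ± 0.04, limma adjusted p = 0.367), and Cox8a 19098, 18747 and 18005 in KO against 17023, 18259 and 17772 in WT (0.07 ± 0.04, limma adjusted p = 0.238). Both general forms had overlapping groups. As a share of the length-scaled pair, the restricted form made up 1.46% in KO and 1.29% in WT for Cox6a2, 2.29% and 2.04% for Cox7a1, and 0.246% and 1.17% for Cox8b.

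**Figure D2:**
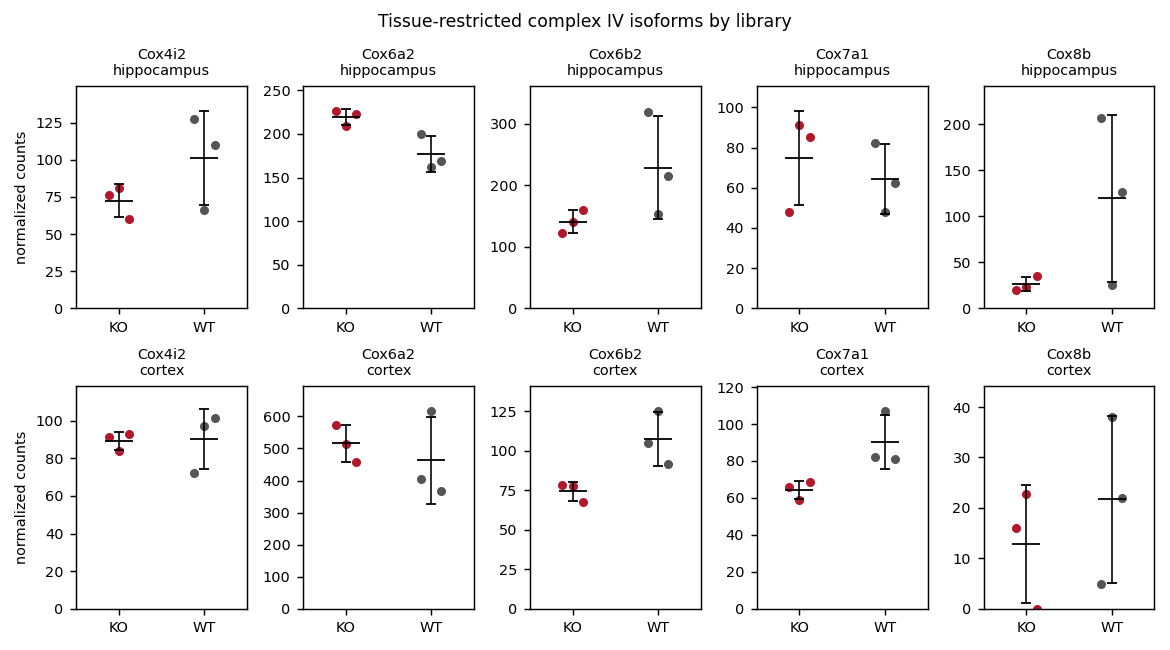
Normalized counts (linear axis from 0, a scale of its own in each panel) of the 5 tissue-restricted complex IV isoforms in hippocampus and cortex, 1 point per library, KO left of WT, with the group mean and SD. Cox8b separates hippocampus WT libraries 1 and 3 (207 and 127 normalized counts) from the other 4 libraries.

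Of the 17 nuclear genes of complex V, 7 rose in KO hippocampus, 4 of them in the F1 head and central stalk. Atp5a1, the alpha subunit, had 52582, 55379 and 54101 normalized counts in KO against 43980, 46411 and 44281 in WT. Atp5b, the catalytic beta subunit, had 70962, 74361 and 71470 in KO against 59811, 63833 and 61481 in WT. In both genes the lowest KO library lay above the highest WT library (Atp5a1 0.27 ± 0.04, limma adjusted p = 0.00402, and Atp5b 0.23 ± 0.05, limma adjusted p = 0.00939). Exons of Atp5a1 overlap Haus1 on the opposite strand. The gamma and delta subunits of the central stalk rose less in point estimate, Atp5c1 by 0.16 ± 0.03 (limma adjusted p = 0.0115) and Atp5d by 0.15 ± 0.03 (limma adjusted p = 0.0161). Atp5e, the epsilon subunit of the same stalk, had 3440, 3568 and 3487 in KO against 3615, 3571 and 3795 in WT. It was the single nuclear member with every KO library below every WT library, by a margin of a few counts, and was not called (-0.06 ± 0.04, limma adjusted p = 0.282).

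The c ring, the rotor in the membrane, is made from 3 genes that encode the same mature peptide, and 2 of them rose. Atp5g3 had 11175, 11534 and 11472 normalized counts in KO hippocampus against 10166, 9499 and 9643 in WT (0.22 ± 0.04, limma adjusted p = 0.00606). Atp5g2 had 3135, 3101 and 3112 in KO against 2824, 2878 and 2911 in WT (0.12 ± 0.04, limma adjusted p = 0.0493). Atp5g1 had 6108, 6512 and 6013 in KO against 6051, 5670 and 6172 in WT, the only overlapping groups of the 3 (0.06 ± 0.05, limma adjusted p = 0.417). Atp5g3 made up 62.2%, 62.5% and 63.1% of the length-scaled c ring transcripts in KO against 61.5%, 60.3% and 59.6% in WT, a separation of the groups at the smallest p that 3 against 3 libraries allow (2-sided exact permutation p = 0.1). In the peripheral stalk that holds the head still, Atp5f1 rose, with 13248, 14146 and 14161 in KO against 12118, 11639 and 11660 in WT (0.23 ± 0.04, limma adjusted p = 0.00635). Its partners Atp5h, Atp5j and Atp5o were not called (0.09 to 0.10) although all 4 stalk genes had an unadjusted p under 0.05. The 4 membrane accessory genes (Atp5j2, Atp5k, Atp5l and Atp5mpl) lay between -0.04 and 0.11 and none was called. Atp5j2 had 5165, 5407 and 5274 in KO against 5262, 5231 and 4978 in WT, and Atp5s, a coupling factor, 886, 888 and 966 in KO against 862, 778 and 904 in WT, with overlap in both.

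The mt genes made up 2.70%, 2.58% and 3.04% of all normalized counts in KO hippocampus against 2.35%, 2.12% and 2.28% in WT (2.78 ± 0.24% and 2.25 ± 0.12%, SD, n = 3 each). The groups did not overlap, at the smallest p possible (2-sided exact permutation p = 0.1). The mitochondrial rRNAs averaged 0.516% in KO and 0.503% in WT. mt-Cytb, the cytochrome b of complex III, had 501142, 487268 and 528576 normalized counts in KO against 396158, 391644 and 407150 in WT. Its groups were the most widely separated of the 6 mt genes by p (0.34 ± 0.07, limma adjusted p = 0.00820). mt-Co1, the catalytic subunit of complex IV (chrM:5328-6872, plus strand), had 1079313, 1033536 and 1197400 in KO against 856765, 842583 and 865298 in WT (0.37 ± 0.09, limma adjusted p = 0.0191). mt-Co2, which receives the electrons from cytochrome c, had 182917, 177579 and 202718 in KO against 164571, 157421 and 162727 in WT (0.21 ± 0.07, limma adjusted p = 0.0429). In these 3 genes KO and WT did not overlap.

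In the other 3 mt genes KO library 3 stood well above the other 5 libraries, and none was called. mt-Co3, the third mitochondrially encoded subunit of complex IV, had 143382, 138829 and 189934 normalized counts in KO hippocampus against 144688, 127388 and 138309 in WT (0.19 ± 0.12, limma adjusted p = 0.278). mt-Atp6, part of the proton channel, had 168684, 158409 and 218886 in KO against 156401, 144509 and 154087 in WT (0.25 ± 0.12, limma adjusted p = 0.150), and its groups did not overlap although those of mt-Co3 did. mt-Atp8, a small membrane subunit, had 22832, 21654 and 38757 in KO against 24114, 19809 and 21964 in WT (0.29 ± 0.21, limma adjusted p = 0.333). KO library 3 was the highest and WT library 2 the lowest in 6 of 6 mt genes. mt-Atp8 and mt-Atp6 are read from 1 transcript and share 43 bases (chrM:7927-7969, plus strand, GRCm38 transcripts of GENCODE), 21.1% of the length of mt-Atp8 and 6.31% of mt-Atp6, so reads there could not be assigned to 1 gene. The shared stretch is printed because it bears on the counts of both genes, with the start codon of mt-Atp6 and the stop codon of mt-Atp8 in capitals.
mt-Atp8 and mt-Atp6 overlap: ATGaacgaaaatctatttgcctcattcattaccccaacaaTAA
The ratio of mt-Atp8 to mt-Atp6 was 0.135, 0.137 and 0.177 in KO and 0.154, 0.137 and 0.143 in WT.

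**Figure D3:**
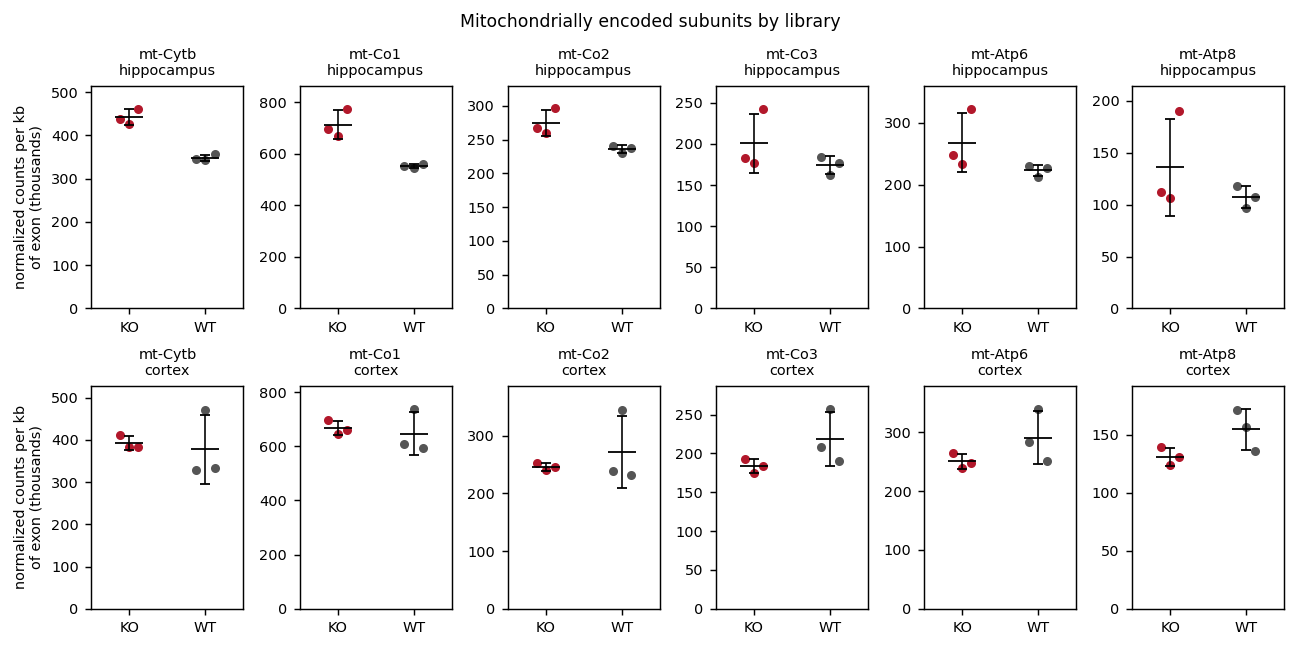
Normalized counts per kilobase of exon (linear axis from 0, with the multiple given on the axis, and a scale of its own in each panel), of the 6 mitochondrially encoded genes in each library of hippocampus and cortex, KO left of WT, with the group mean and SD. In hippocampus the KO and WT points of mt-Cytb, mt-Co1 and mt-Co2 do not overlap, and in cortex WT library 2 is the highest in 5 of 6 genes.

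Levels per kilobase of exon placed the mt genes far above the nuclear genes. In hippocampus mt-Co1 reached 714185 ± 54725 normalized counts per kb in KO and 553322 ± 7426 in WT, and mt-Atp8, the lowest mt gene, 136018 ± 46826 in KO and 107657 ± 10552 in WT (SD, n = 3 each). Among nuclear genes Cox8a was the highest, followed by Cox6a1 at 21849 ± 564 in KO and 19964 ± 688 in WT. Atp5a1 and Atp5b, whose proteins form the head of the same enzyme in equal numbers, had 17231 ± 447 and 17056 ± 433 per kb in KO. In WT they had 14319 ± 423 and 14564 ± 477, and the difference between these 2 genes was within the spread of either. That closeness rests on their exonic lengths, merged over annotated transcripts, of 3135 and 4237 bases. Before scaling, the KO means were 54020 and 72264 normalized counts, and the WT means 44891 and 61708. RNA levels do not give protein numbers. Summed normalized counts of mt over nuclear subunits of complex IV gave ratios of 12.1, 11.7 and 14.0 in KO and 10.9, 10.3 and 11.0 in WT, without overlap (2-sided exact permutation p = 0.1, the smallest possible). For complex III they were 7.92, 7.41 and 8.32 in KO and 6.93, 6.77 and 7.10 in WT, also without overlap, and for complex V 0.862, 0.778 and 1.14 in KO and 0.918, 0.815 and 0.891 in WT, with wide overlap (2-sided exact permutation p = 0.9).

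The share of called genes moved with level and exonic length in hippocampus as a whole. Of the 37 nuclear subunit genes that averaged 2000 normalized counts or more, 16 (43.2%) rose in KO, against 2179 of 6931 other protein-coding genes (31.4%) at that level. Among genes with up to 2 kb of exon, 7 of 23 (30.4%) rose, against 195 of 444 (43.9%). Between 2 and 4 kb these were 6 of 9 (66.7%) against 865 of 1652 (52.4%), and above 4 kb 3 of 5 (60%) against 1119 of 4835 (23.1%), the 3 being Uqcrc1, Atp5b and Atp5f1. Across the 43 nuclear genes, which share their libraries and depth, log2 fold change and exonic length had a Spearman rho of 0.31. With the trend along exonic length removed, 10 nuclear genes rose, all of them among the 16, against 11.7% of all genes, and Atp5e fell. The 6 that were lost were Atp5c1, Atp5d, Atp5g2, Cox6b1, Cox7c and Cycs. Exonic length was merged over annotated transcripts and can exceed the length of the transcript that was expressed. Some genes may therefore stand in a longer band than their transcripts would. The removal of the length trend used the same merged lengths. Bands by transcript length were not tested.

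**Figure D4:**
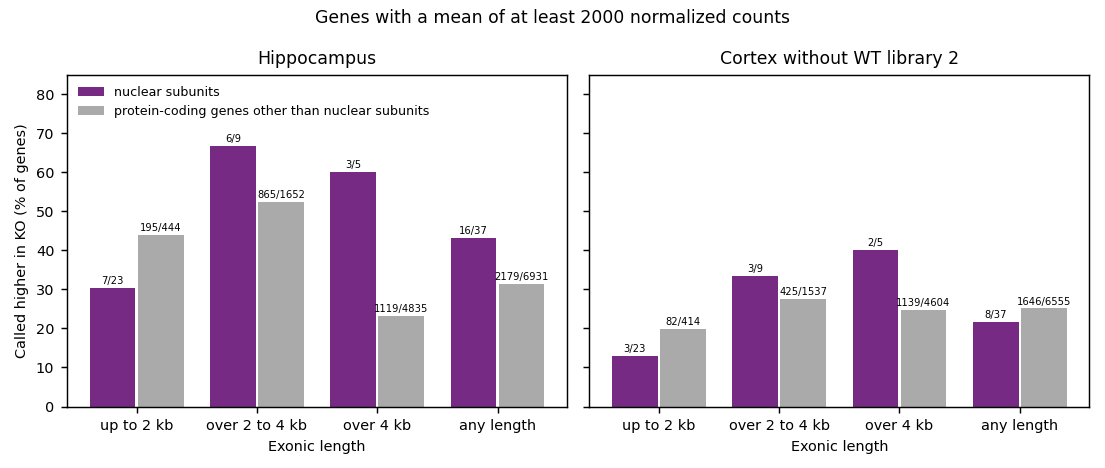
Percentage of genes called higher in KO (adjusted p under 0.05), by exonic length band, for nuclear subunit genes and for other protein-coding genes that averaged 2000 normalized counts or more, in hippocampus and in cortex without WT library 2. In hippocampus the subunit genes lie below the other genes up to 2 kb (30.4% against 43.9%) and above them in the longer bands. Exonic lengths are merged over annotated transcripts.

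In cortex, 0 of the 43 nuclear and 0 of the 6 mt genes were called, and 2 and 1 had an unadjusted p under 0.05, with the same counts in edgeR. Of the 21945 genes tested by limma, 1.28% were called higher and 0.661% lower in KO. The median log2 fold change was -0.13 over the nuclear genes and -0.16 over the mt genes, against -0.012 over all genes. No member had every KO library above every WT library, against 16% of all genes, and 2 nuclear members had every KO library below, against 12.2%. These were Cox6b2, with 78.1, 77.6 and 67.4 normalized counts in KO against 105, 125 and 91.8 in WT (-0.52 ± 0.18, limma adjusted p = 0.196), and Cox7a1, with 65.8, 59.0 and 68.5 in KO against 82.2, 107 and 81.3 in WT (-0.47 ± 0.18, limma adjusted p = 0.239). Cox6a2 had 574, 515 and 458 in KO against 404, 617 and 366 in WT, with WT library 2 above all KO libraries and the other WT libraries below them.

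The cortex values turned on WT library 2, which was the highest library in 42 of 43 nuclear and 5 of 6 mt genes. Cox5a had 7171, 6988 and 7219 normalized counts in KO cortex against 6760, 9927 and 6437 in WT. Cyc1 had 8371, 8552 and 8592 in KO against 8523, 10736 and 8817 in WT, and Atp5a1 48320, 48597 and 48371 in KO against 44383, 49518 and 44024 in WT. In each of these genes the KO libraries lay close together and WT library 2 lay above all of them. mt-Cytb had 471751, 439326 and 439408 in KO against 375782, 538879 and 381093 in WT, and mt-Co1 1078826, 998962 and 1020657 in KO against 939321, 1142617 and 919328 in WT. The mt genes made up 2.84%, 2.62% and 2.69% of all normalized counts in KO against 2.58%, 3.43% and 2.51% in WT (2-sided exact permutation p = 1). The mitochondrial rRNAs were also highest in WT library 2, at 0.797% of normalized counts against 0.527% and 0.529% in WT libraries 1 and 3, and blood markers summed to 21948 in it, against 10855 and 12747. Their part in the levels of the subunit genes was not tested.

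**Figure D5:**
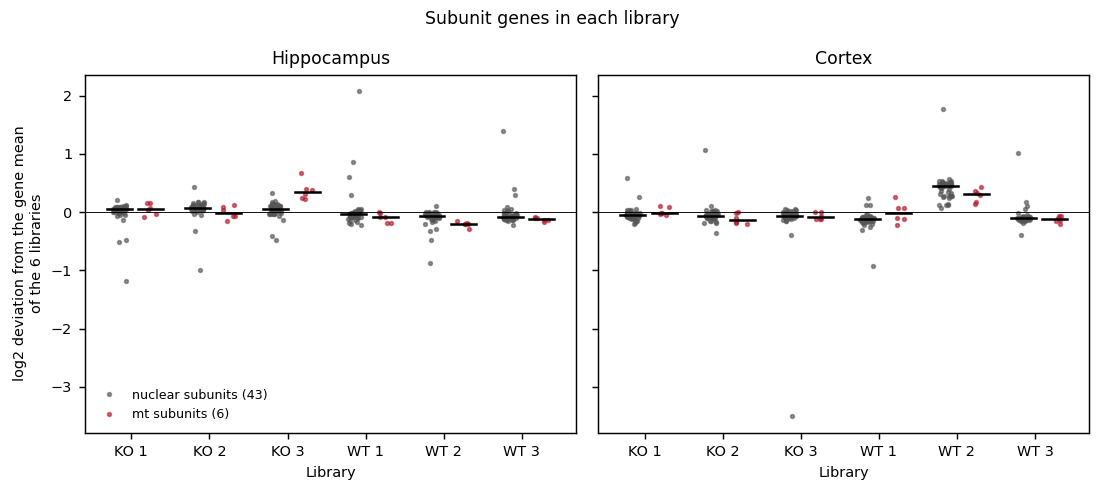
Log2 deviation of each subunit gene from its mean over the 6 libraries of a tissue, by library, KO left of WT, with nuclear and mt genes side by side and a bar at the median of each. In cortex the median nuclear gene of WT library 2 lies at 0.45 and those of the other 5 libraries between -0.12 and -0.05.

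Without WT library 2, 9 of the 43 nuclear genes and 2 of the 6 mt genes rose in KO cortex and 0 fell, against 11% of all genes called higher and 10.4% lower. That library stood out through the high values of these same genes. Leaving it out raises KO over WT in them by construction, so these counts are no separate evidence of a rise. At a mean of 2000 normalized counts or more the share was not higher than in other protein-coding genes, with 8 of 37 members (21.6%) against 1646 of 6555 (25.1%). With up to 2 kb of exon it was lower, 3 of 23 (13.0%) against 82 of 414 (19.8%). In the longer bands it was higher, 3 of 9 (33.3%) against 425 of 1537 (27.7%) between 2 and 4 kb. Above 4 kb it was 2 of 5 (40%) against 1139 of 4604 (24.7%). These bands rest on the same merged exonic lengths as in hippocampus. Uqcrc2 then had a log2 fold change of 0.18 (limma adjusted p = 0.00331), Atp5a1 of 0.13 (limma adjusted p = 0.00175) and Atp5f1 of 0.14 (limma adjusted p = 0.00758). Cox6a2 had the highest value of the called members, 0.42 (limma adjusted p = 0.0302). The others that rose were Cox5a, Cox7b, Cox8a, Atp5b and Atp5c1 (0.09 to 0.11). mt-Cytb rose by 0.25 (limma adjusted p = 0.000861) and mt-Co1 by 0.15 (limma adjusted p = 0.00844). Of the 16 nuclear genes that rose in hippocampus, 6 were among the 9 of cortex without WT library 2. The WT group of this cortex fit held only libraries 1 and 3, and library 3 lay near library 1 (median position 0.882, with 1 at library 1). The spread of WT may therefore be understated in it.

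Some ratios between members of the same library set cortex WT library 2 apart and others did not. It was the highest library for mt-Cytb over mt-Co1, at 0.437, 0.440 and 0.431 in KO against 0.400, 0.472 and 0.415 in WT. For mt-Atp8 over mt-Atp6 it was the lowest, at 0.157, 0.154 and 0.158 in KO against 0.181, 0.138 and 0.162 in WT. The ratio of mt-Co3 to mt-Co1 was 0.140, 0.137 and 0.142 in KO against 0.174, 0.176 and 0.162 in WT, without overlap (2-sided exact permutation p = 0.1, the smallest possible). In hippocampus the same ratio was 0.133, 0.134 and 0.159 in KO against 0.169, 0.151 and 0.160 in WT, with overlap. Cox6a2 made up 3.90%, 3.49% and 3.17% of the length-scaled Cox6a pair in KO cortex against 3.07%, 2.98% and 2.63% in WT. Cox7a1 made up 2.11%, 1.85% and 2.12% of the pair with Cox7a2 in KO cortex against 2.69%, 2.18% and 2.65% in WT, so the muscle form was higher in KO in 1 family and lower in the other, each without overlap. For complex III, mt-Cytb over the summed nuclear subunits gave 8.02, 7.45 and 7.43 in KO cortex against 6.62, 7.17 and 6.68 in WT. The same ratio for complex V was lower in KO without overlap, at 1.03, 0.920 and 0.950 in KO cortex against 1.18, 1.08 and 1.04 in WT, and for complex IV it overlapped, at 12.9, 12.1 and 12.2 in KO against 12.3, 10.1 and 11.7 in WT (2-sided exact permutation p = 0.3). Of 54 such library values tested over both tissues, 24 reached the smallest possible p of 0.1, and the lowest Benjamini-Hochberg adjusted p was 0.225.

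The tissues were compared by a genotype-by-tissue interaction in limma, fitted to all 12 libraries, which takes hippocampus and cortex libraries as independent. None of the 49 genes was called, against 3.02% of the 21282 genes tested in either direction, and 7 nuclear and 2 mt genes had an unadjusted p under 0.05. In edgeR 0 were called as well, and 2 nuclear and 1 mt gene had an unadjusted p under 0.05. Cyc1 had the smallest adjusted p of the members, with a genotype effect larger in hippocampus by 0.33 ± 0.10 (limma adjusted p = 0.0968). The differences for Uqcrc1 and mt-Atp6 were 0.23 ± 0.08 (limma adjusted p = 0.129) and 0.45 ± 0.18 (limma adjusted p = 0.167). Cyc1 was called when a cortex WT library was left out, with a difference of 0.39 (limma adjusted p = 0.0397) without library 1 and 0.23 (limma adjusted p = 0.00789) without library 2. Without cortex WT library 2 the median difference over the nuclear genes was 0.06, against 0.23 with it.

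In the rest of the respiratory chain, called genes of hippocampus were mostly subunits of complexes I and II. Of the 36 nuclear complex I genes 14 rose and 0 fell, where 14.1% of all genes rose. Among protein-coding genes that averaged 2000 normalized counts or more, 31.5% rose. The 14 were led by Ndufs1, the largest iron-sulfur subunit (0.30 ± 0.04, limma adjusted p = 0.00118), and Ndufv1, the NADH-binding subunit (0.29 ± 0.04, limma adjusted p = 0.00153). Of the 7 mt-encoded complex I genes 6 rose, with mt-Nd5 at 0.62 ± 0.07 (limma adjusted p = 0.000662), and mt-Nd3 did not (-0.01). In complex II, which feeds electrons from succinate, Sdha (0.19, limma adjusted p = 0.0112) and Sdhb (0.26, limma adjusted p = 0.00368) rose and Sdhc and Sdhd were not called. Assembly factors were called in 1 of 6 for complex III (Uqcc1), 5 of 22 for complex IV (Surf1, Cox10, Cox15, Coa5 and Lrpprc) and 1 of 6 for complex V (Usmg5), all higher in KO. In cortex none of the genes of these lists was called with all libraries. Without cortex WT library 2, 5 nuclear complex I genes, 4 mt-encoded complex I genes, 2 complex IV assembly factors (Coa5 and Higd1a) and 1 complex V assembly factor (Atpaf1) rose, and mt-Nd3 fell by 0.21 on the log2 scale (limma adjusted p = 0.00921). With that library left out, 11% of all genes were called higher and 10.4% lower.

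Regulators of mitochondrial biogenesis were called about as often as genes in general. In KO hippocampus 2 of 14 were higher and 3 lower, against 14.1% and 15.1% of all genes. Tfam, which packages and transcribes mitochondrial DNA, had 2406, 2521 and 2498 normalized counts in KO against 2139, 2115 and 2161 in WT (0.21 ± 0.04, limma adjusted p = 0.00835). Tfb2m, a transcription factor of the mitochondrial polymerase, rose as well (0.25 ± 0.07, limma adjusted p = 0.0338). Ppargc1b, a nuclear coactivator of respiratory genes, had 439, 550 and 493 in KO against 1027, 1103 and 1110 in WT, less than any WT library by a wide margin (-1.13 ± 0.09, limma adjusted p = 0.000145). Ppargc1a, its better known relative, fell by 0.20 ± 0.06 on the log2 scale (limma adjusted p = 0.0393), and Mterf3 fell by 0.29 ± 0.08 (limma adjusted p = 0.0259). Nrf1 and Gabpa, the factors behind the promoter motifs above, had log2 fold changes of 0.01 and -0.11 and were not called. In cortex 1 of the 14 was called, Esrrg, higher in KO (0.58, limma adjusted p = 0.0182), where 1.28% of all genes were called higher. Without cortex WT library 2, 4 rose (Esrra, Esrrg, Tfb2m and Yy1) and 2 fell (Ppargc1b and Twnk), against 11% and 10.4% of all genes.

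Cell-type markers also differed between the hippocampus groups, where 14.1% of all genes were called higher and 15.1% lower in KO. Of protein-coding genes that averaged 2000 normalized counts or more, 31.5% were called higher and 18.6% lower. Of 10 neuron markers 7 rose and 1 fell, and their summed normalized counts ranged from 939019 to 971712 in KO against 786544 to 933127 in WT. Of 10 microglia markers 9 rose and 0 fell, from 36609 to 38084 in KO against 25332 to 30148 in WT, and of 10 oligodendrocyte markers 6 rose. Of 10 astrocyte markers 4 rose and 1 fell, and 0 of 10 endothelial and 0 of 5 blood markers were called. Of 6 nuclear retained RNAs 3 fell and 0 rose, with sums of 457397 to 495707 in KO against 666621 to 705826 in WT. No gene of these lists was at 0 in every library. In cortex 9 of 10 striatal neuron markers rose, against 1.28% of all genes. Their sums were 41611, 66558 and 53530 in KO against 19049, 18580 and 19141 in WT. Whether these shifts in cell types and RNA bear on the subunit genes was not tested.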

How the data were processed

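Total RNA of hippocampus and cortex (12 libraries, 3 per group) was sequenced on Illumina libraries, per the labels' protocols. The submitters' processing notes name STAR, HTSeq, DESeq2 and GRCm38, with versions not given in the sources used here. For each tissue the authors deposited 1 table whose signal values are normalized counts; each library's values were whole multiples of 1 step within 0.001, as reads divided by a size factor would be. Taking 1 step as 1 read, the libraries held between 68424934 and 86639113 reads, which made counting error small except for restricted isoforms. Each table had its own scaling, and no level was compared across tissues.

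Identifiers were matched to GENCODE M21 (55227 of 55487 rows), which gave symbols, coordinates and merged exonic lengths. Genotypes were compared per tissue with limma 3.58.1 (R 4.3.3; prior variance with a trend) on log2(normalized count + 1), keeping genes that averaged 10 or more, with Benjamini-Hochberg adjustment over all genes tested; this scale understates changes of low genes. The interaction came from 1 fit over all libraries. Single values were tested with exact permutation tests (scipy 1.17.1), which cannot go below 0.1. Read counts recovered from these steps were tested with edgeR 4.0.16 as an alternative. The other alternatives were the pseudocount, the filter on low values, quantile and TMM scaling, removal of the exonic length trend, a prior variance without trend, a replicate block, and leaving out libraries. The fits were tested on simulated data.

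Named genes were the mt genes, the 3 nuclear members per complex with the smallest p in hippocampus and the 2 in cortex, the 3 with the smallest interaction p, all isoform families, and Tert. Uqcrfs1, Uqcrq, Cox7c, Atp5b, Atp5c1, Atp5d, Atp5e and others outside this rule were named after their values were seen. The members, gene lists and tests were chosen with earlier results of these data known. Promoter sequences are RefSeq (GRCm38.p6).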

Additional observations from a re-analysis of the deposited data

How the results depend on the processing

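In hippocampus the count of nuclear genes that rose (16) was 10 with the exonic length trend removed and 10 with a prior variance without trend. Atp5e fell under the first (1 gene), and Cox8b fell in edgeR on recovered reads (1 gene), which called 16 higher, 15 of them shared. The nuclear median (0.11) was 0.0896 with TMM factors, 0.0450 with the length trend removed and 0.0883 in edgeR. The mt count (3) was 1 with a pseudocount of 10, 1 with a mean of at least 50 and 0 with quantile normalization, where the mt median was 0.10; mt-Co1 was the highest gene of every library and so had no difference there by construction, and this scaling moved the median of all genes to 0.093. In cortex the mt median turned to 0.11 with the length trend removed. Leaving out libraries, those numbered 3 included, gave 0 to 16 nuclear and 0 to 3 mt genes in hippocampus, 0 to 3 that fell, and medians of 0.11 to 0.12 and 0.13 to 0.36. In cortex it gave 0 to 9 and 0 to 2 with medians of -0.22 to 0.0640 and -0.26 to -0.01, and for the interaction 0 to 1 nuclear and 0 mt genes with a nuclear median of 0.06 to 0.33. The KO minus WT difference in the mt share was 0.392 to 0.621 percentage points in hippocampus and -0.290 to 0.172 in cortex, where the difference in the summed nuclear share was 0.0164 without WT library 2. Cortex Cox5a ranged from -0.21 to 0.11 and Cox8a turned to 0.09, both above 0 without WT library 2. With the replicate number as a block, 13 nuclear genes (without Atp5g2, Cox6b1 and Cox7c) and 3 mt genes rose in hippocampus and 0 in cortex. Deviations of same-numbered libraries correlated between -0.065 and 0.091, and those of libraries with other numbers between -0.098 and 0.121. Deviations from a mean of 3 libraries cannot show whether libraries of the same number share an animal or batch. Of the 17 alternatives in hippocampus, 16 kept the calls of Uqcrc1, Uqcrc2, Uqcrfs1, Cyc1, Cox5a, Cox7a2l, Atp5a1, Atp5f1 and Atp5g3, the exception being without the libraries numbered 3, and Atp5g2 was called in 4. edgeR called 0 members in cortex and 0 for the interaction. Except where stated, the cause was not tested.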
